A study of Homo sapiens with 12 samples.

Results

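The genes described here are APOL1, APOL2, APOL3, APOL4 and APOL6 of the apolipoprotein L family, together with LGALS3BP and HELZ2, which makes 7 of the 58302 genes in the deposited files and of the 36305 genes above 0 in at least 1 library. APOL1, LGALS3BP and HELZ2 were chosen by their measured response to NUF2 knockdown, which differed between the cell lines, so their responses are given as a description with no test. The other 4 genes were taken in because APOL genes matter in the kidney. RNA was sequenced from 769-P and ACHN cells, a pair of established renal carcinoma cell lines that the authors describe as clear cell renal cell carcinoma (ccRCC), 48 h after transfection with a mixture of siRNAs against NUF2 (si-NUF2) or with a control siRNA (si-NC). NUF2 is a subunit of the kinetochore complex that holds chromosomes on spindle microtubules. Each of the 4 groups had 3 replicates, which gave 12 libraries, and no other agent or allele is named for any group. Each cell line stands for 1 tumor, and knockdown by siRNA leaves part of the NUF2 mRNA in place. Whether the replicates were separate cultures is not stated, so p-values measure only the spread between these libraries.

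APOL1 is a secreted protein carried on high-density lipoprotein particles and is best known for killing trypanosomes and for its part in inherited susceptibility to kidney disease. APOL2, APOL3, APOL4 and APOL6 lack the signal that lets APOL1 be secreted and act inside cells, where APOL3 has been described as a detergent-like factor against bacteria and APOL6 as a protein that can promote cell death. LGALS3BP, also named Mac-2 binding protein, is a heavily glycosylated secreted protein that binds galectins and matrix proteins. HELZ2 is a large helicase of the UPF1-like family that was first described as a coactivator of the nuclear receptor PPARA. Many of these genes are known to be switched on by interferon. Interferons bind their receptors, activate JAK kinases and, through them, STAT and IRF factors, which then bind elements made of GAAA, any 2 bases and GAAA in the promoters of interferon-stimulated genes.

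The APOL genes lie together on chromosome 22, the positions being those of GENCODE release 29 on GRCh38. APOL3 (ENSG00000128284) is at chr22:36140330-36166177, APOL4 (ENSG00000100336) at chr22:36189124-36204840 and APOL2 (ENSG00000128335) at chr22:36226203-36239954, all on the reverse strand. APOL1 (ENSG00000100342) follows on the forward strand at chr22:36253010-36267530. APOL6 (ENSG00000221963) stands apart from these at chr22:35648395-35668409 on the forward strand. LGALS3BP (ENSG00000108679) is at chr17:78971238-78980109 and HELZ2 (ENSG00000130589) at chr20:63558086-63574239, both on the reverse strand. All 7 are protein-coding genes, and none of them overlaps another annotated gene. The APOL genes resemble one another in sequence, and how reads that matched more than 1 gene were counted is not given in the sources used here.

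RefSeq promoter windows of 300 bases on GRCh38.p14 were at hand for 2 of the 7 genes, LGALS3BP and HELZ2. They are shown because both genes were followed here beside interferon-stimulated genes, and a match to this element, searched on both strands, is in capitals. The windows run from 250 bases before to 50 bases after the annotated start, at chr17:78979874-78980173 for LGALS3BP and chr20:63574190-63574489 for HELZ2, and are given 5′ to 3′ on the reverse strand on which the genes lie.
LGALS3BP: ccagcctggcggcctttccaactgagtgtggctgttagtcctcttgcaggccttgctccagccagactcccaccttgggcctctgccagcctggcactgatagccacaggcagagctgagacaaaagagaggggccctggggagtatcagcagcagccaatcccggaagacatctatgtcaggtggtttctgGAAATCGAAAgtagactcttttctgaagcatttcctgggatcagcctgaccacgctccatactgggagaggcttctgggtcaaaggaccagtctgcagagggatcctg
HELZ2: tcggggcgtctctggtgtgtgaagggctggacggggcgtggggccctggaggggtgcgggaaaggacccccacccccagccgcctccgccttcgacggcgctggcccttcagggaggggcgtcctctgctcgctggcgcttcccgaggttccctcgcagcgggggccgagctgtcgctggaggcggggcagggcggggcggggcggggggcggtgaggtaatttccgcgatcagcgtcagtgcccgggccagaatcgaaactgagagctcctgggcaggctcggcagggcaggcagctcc

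The LGALS3BP window held the letters GAAATCGAAA, which start at position 193 of the window, or -58 from the annotated start. The HELZ2 window held no match, nor did a further HELZ2 window at chr20:63567705-63568004. The motif was present in 3.57% of all 35116 promoter windows and in 61.1% of the 54 windows that belong to 39 genes of a list of 50 interferon-stimulated genes. The shorter element of TTC, any 3 bases and GAA, which STAT dimers are known to bind, was found in neither gene, in 7.66% of all windows and in 24.1% of those of the listed genes. These matches describe letters and not bound sites.

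For every library the authors deposited FPKM, which counts fragments against a gene's exon length and the size of the library. With the exon length taken into account, 95.2% of values above 0 came to whole reads (within 0.05 reads), so reads could be recovered. They summed to 26368027 to 30046196 reads in the 769-P libraries and to 30188665 to 34582313 in the ACHN libraries. Members that passed the filter had between 217 and 21600 reads in a library, which limits their counting error to between 6.79% and 0.680%. The spread between replicates was far wider than this for most of them. NUF2 itself, the targeted gene, stood at 4.17, 3.86 and 3.01 FPKM in the si-NUF2 libraries of 769-P cells against 19.4, 17.8 and 17.8 with si-NC. ACHN cells had 2.16, 5.14 and 4.25 FPKM against 11.6, 15.0 and 14.8. The groups did not overlap in either cell line. NUF2 fell by 2.29 on the log2 scale in 769-P cells (SE 0.128, adjusted p = 0.00129 in limma). The log2 difference in ACHN cells was -1.87 (SE 0.320), which missed the threshold without a replicate block (adjusted p = 0.224 in limma) and passed it with the block (adjusted p = 0.0122).

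Log2 differences below are those of log2(FPKM + 0.1), si-NUF2 minus si-NC, from limma across all genes with at least 0.5 FPKM in at least 3 libraries, which understates the change of low genes. Adjusted p-values are by the Benjamini-Hochberg method over all genes tested and a gene was called at under 0.05. Libraries with the same replicate number deviated together, so a fit that blocks on this number is given where it changes a call. In 769-P cells the call was made for 9.98% of the 14155 genes tested, and for 27.5% once the block was used. In ACHN cells the corresponding shares were 0% and 12.2% of 15116 genes, and for the difference between the cell lines 0% and 1.52% of 16564 genes. Of all genes tested in 769-P cells, 30.9% were higher in all 3 same-numbered pairs and 32.1% were lower. In ACHN cells these shares were 29.2% and 25.6%, so agreement of 3 pairs was common. The share of all genes whose groups did not overlap was not counted. Of the 7 members, 6 passed the filter in ACHN cells and 5 in 769-P cells. APOL4 passed in neither line and APOL3 passed in ACHN cells alone. In bulk RNA, a larger share of responding cells and more RNA per cell cannot be told apart.

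APOL1, the secreted family member, was measured at 21.9, 22.5 and 15.5 FPKM in replicates 1, 2 and 3 of the si-NUF2 libraries of 769-P cells and at 12.2, 13.2 and 8.09 in those of si-NC. Each si-NUF2 library stood above each si-NC library, and replicate 3 was the lowest in both groups. The means were 19.97 ± 3.90 and 11.2 ± 2.71 FPKM (SD, n = 3), with a ratio of 1.79 and log2 differences in the same-numbered pairs of 0.85, 0.77 and 0.94. In the ACHN libraries APOL1 was at 9.21, 12.9 and 23.1 FPKM with si-NUF2 and at 10.4, 14.9 and 22.7 with si-NC. There the groups overlapped almost entirely and replicate 3 was more than any other library of its group. The means were 15.1 ± 7.20 and 15.99 ± 6.23 FPKM (SD, n = 3), and the pairs differed by -0.14, -0.20 and 0.04 on the log2 scale.

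LGALS3BP, the galectin-binding glycoprotein, was by far the most abundant of the 7 genes. It was measured at 184, 209 and 165 FPKM in the si-NUF2 libraries of 769-P cells and at 113, 125 and 93.2 in those of si-NC. The lowest si-NUF2 library was above the highest si-NC library. The means were 186 ± 22.2 and 111 ± 16.1 FPKM (SD, n = 3), with a ratio of 1.68 and pair differences of 0.70, 0.75 and 0.84 on the log2 scale. In ACHN cells the values were 160, 144 and 171 FPKM against 151, 140 and 162. These groups overlapped, although the si-NUF2 library was the higher one in each pair, by 0.11, 0.05 and 0.10 on the log2 scale. LGALS3BP had the tightest replicates of the members in both groups of ACHN cells, with an SD of 8.58% of the mean with si-NUF2 and 7.25% with si-NC.

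HELZ2, the helicase, had the largest difference among the members that passed the filter in 769-P cells. Its values were 18.01, 21.5 and 7.74 FPKM with si-NUF2 and 5.93, 5.48 and 3.14 with si-NC. The groups did not overlap, but the si-NUF2 library of replicate 3 was well under the other two. The means were 15.8 ± 7.16 and 4.85 ± 1.496 FPKM (SD, n = 3), with a ratio of 3.25, and the pairs differed by 1.59, 1.96 and 1.29 on the log2 scale. In the ACHN libraries HELZ2 was at 4.07, 2.24 and 5.15 FPKM with si-NUF2 and at 5.46, 2.76 and 5.62 with si-NC. The si-NUF2 library was the lower one in each pair, by log2 differences of -0.39, -0.28 and -0.11, while the groups overlapped widely.

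For these 3 chosen genes the fitted log2 differences in 769-P cells were 0.86 (SE 0.218) for APOL1, 0.77 (SE 0.129) for LGALS3BP and 1.62 (SE 0.405) for HELZ2. In ACHN cells they were -0.10 (SE 0.412), 0.09 (SE 0.109) and -0.26 (SE 0.394) in the same order. The response in ACHN minus that in 769-P cells was -0.95 (SE 0.506) for APOL1, -0.67 (SE 0.177) for LGALS3BP and -1.87 (SE 0.631) for HELZ2. With the replicate block the estimates stayed as they were and the SE of these differences narrowed to 0.0835, 0.0505 and 0.177. No p is given, since these contrasts chose the genes.

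**Figure D1:**
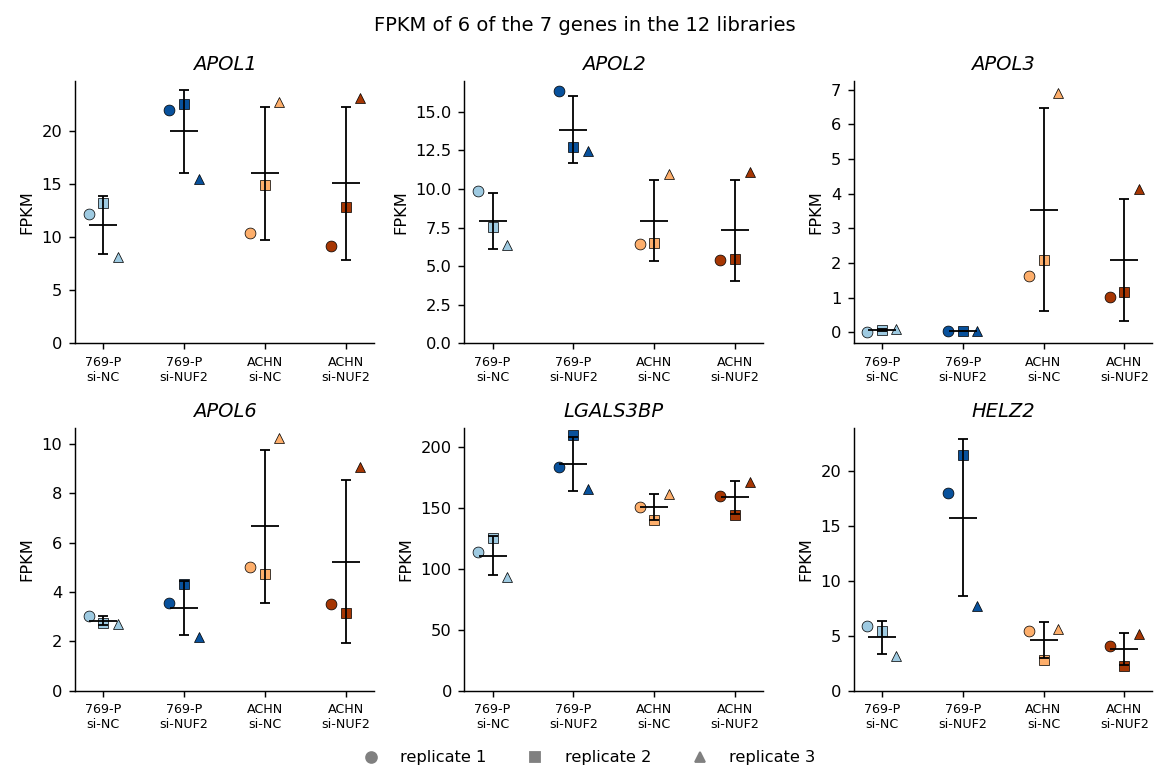
FPKM (linear axes from 0, 1 panel per gene) of 6 of the 7 genes in each of the 12 libraries, with marker shape for the replicate number and black bars for the mean ± SD of 3 libraries. In 769-P cells the si-NUF2 libraries of APOL1, APOL2, LGALS3BP and HELZ2 sit above all si-NC libraries, and in ACHN cells replicate 3 is the highest of its group for the 4 APOL genes shown. APOL1, LGALS3BP and HELZ2 were chosen for their response, and how many of all genes separate in this way was not counted.

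APOL2, an intracellular neighbor of APOL1, rose in 769-P cells, and of the 2 members open to a test there, APOL2 and APOL6, it was the one called. Its values were 16.4, 12.7 and 12.5 FPKM with si-NUF2 and 9.90, 7.56 and 6.36 with si-NC, and the groups did not overlap. The means were 13.85 ± 2.19 and 7.94 ± 1.80 FPKM (SD, n = 3). The log2 difference was 0.82 (SE 0.183, adjusted p = 0.0371 in limma without the block and 0.00528 with it), and the pairs differed by 0.73, 0.75 and 0.97. The two-sided exact permutation p was 0.1, which is the smallest that 3 libraries against 3 can give. Without the block, the call was lost on leaving out any 1 of the 6 libraries other than replicate 1 of si-NC, with adjusted p up to 0.108 in limma. With the block it was kept on leaving out any 1 of the 3 pairs, with adjusted p between 0.00399 and 0.0145.

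In the ACHN libraries APOL2 was at 5.41, 5.48 and 11.1 FPKM with si-NUF2 and at 6.41, 6.48 and 10.97 with si-NC. Replicates 1 and 2 were slightly lower with si-NUF2 and replicate 3 was alike in both groups. The log2 difference was -0.14 (SE 0.350), with an adjusted p of 0.990 in limma without the block and 0.265 with it. Its sign changed when single ACHN libraries were left out.

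APOL6 did not pass the test in either cell line. In 769-P cells its values were 3.57, 4.34 and 2.17 FPKM with si-NUF2 and 3.04, 2.76 and 2.70 with si-NC. The si-NC libraries lay close together, and the si-NUF2 libraries spread to either side of them. The log2 difference was 0.20 (SE 0.232, adjusted p = 0.638 in limma), and it was -0.0064 without replicate 2 of si-NUF2. In the ACHN libraries APOL6 was at 3.50, 3.12 and 9.05 FPKM with si-NUF2 and at 5.02, 4.72 and 10.2 with si-NC. The si-NUF2 library was the lower one in each pair, by log2 differences of -0.48, -0.57 and -0.16. The fitted log2 difference was -0.40 (SE 0.485), which missed the threshold without the block (adjusted p = 0.958 in limma) and with it (adjusted p = 0.0559).

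APOL3 was close to absent in 769-P cells and present in ACHN cells. In 769-P cells it had 6, 4 and 5 reads with si-NUF2 and 4, 14 and 19 reads with si-NC, or 0.0236 to 0.0324 FPKM and 0.0230 to 0.0994 FPKM. It was not tested there because it did not reach the filter. In ACHN cells its values were 1.01, 1.15 and 4.13 FPKM with si-NUF2 and 1.62, 2.09 and 6.91 with si-NC. The groups overlapped because replicate 3 was high in both, yet each pair was lower with si-NUF2 by a like amount, with log2 differences of -0.61, -0.80 and -0.71. The fitted log2 difference was -0.71, with an SE of 0.714 and an adjusted p of 0.932 in limma without the block. With the block the SE was 0.0803 and APOL3 passed as lower (adjusted p = 0.0167). The blocked call was kept without pair 1 and without pair 2 and lost without pair 3 (adjusted p = 0.104 in limma). No gene at all was called in ACHN cells once pair 3 was left out.

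APOL4 had at most 1 read in any library. It had 0 reads in all si-NC libraries of 769-P cells and 1 read in each of 3 libraries of the other groups. A library's limit at a count of 0, taken as 3 reads, was between 0.0178 and 0.0238 FPKM for this gene, so APOL4 was not detectable at this depth and no fold is given. Of the related genes outside the 7, APOL5 had 2 reads in a single ACHN library and none elsewhere. APOLD1, a more distant relative known from endothelial cells, was at 0.256 to 0.516 FPKM in 769-P libraries and at 0.899 to 5.07 FPKM in ACHN libraries. In ACHN cells its log2 difference was -0.22 (adjusted p = 0.991 in limma without the block and 0.132 with it).

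**Figure D2:**
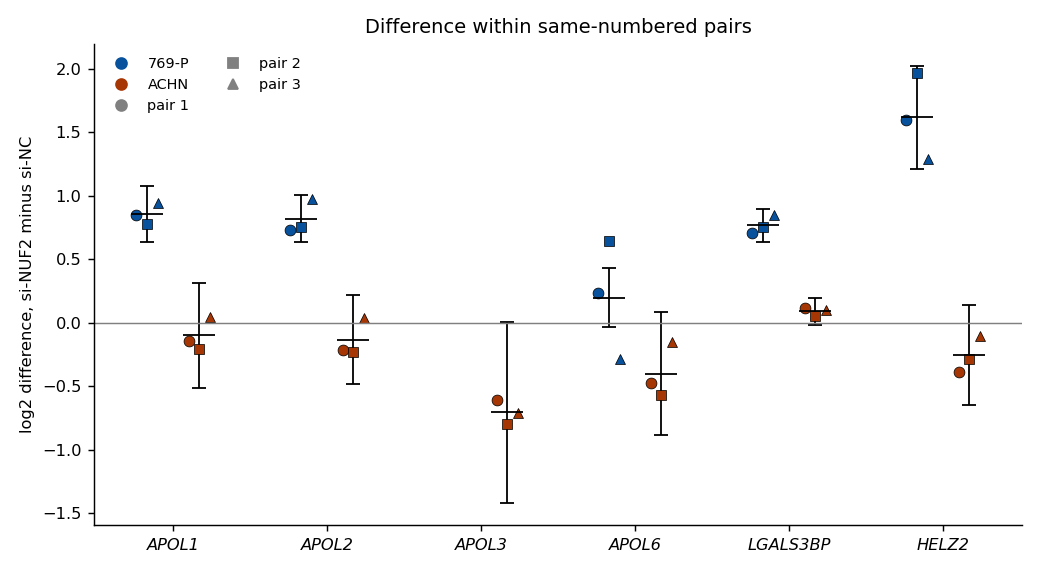
Log2 difference of si-NUF2 minus si-NC (vertical axis, log2(FPKM + 0.1)) for each same-numbered pair, with black bars for the fitted difference ± SE without the block. In 769-P cells the pairs of APOL1, APOL2, LGALS3BP and HELZ2 lie between 0.70 and 1.96, and in ACHN cells the pairs of APOL3 lie between -0.80 and -0.61, far closer together than the SE of 0.714.

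The question whether the response differed between the cell lines was open to a test for APOL2 and APOL6, which were not chosen on it and reached the filter in both cell lines. For APOL2 the response in ACHN minus that in 769-P cells was -0.95 (SE 0.426), with an adjusted p of 1.00 in limma without the block and 0.0323 with it. The sign held under all 28 alternatives run, from -1.29 to -0.71. The call with the block was lost on leaving out any 1 of the 6 pairs other than pair 3 of 769-P cells, with adjusted p up to 0.106 in limma. For APOL6 the difference was -0.59 (SE 0.586, adjusted p = 1.00 in limma without the block and 0.243 with it). For APOL3 no test is given, since it had 4 to 19 reads in the 769-P libraries and no measurable response there. Without the block no gene was called for this difference by limma, nor by limma-voom on the recovered reads, and 776 of the 16564 genes had an unadjusted p under 0.05, which is fewer than 1 in 20.

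The replicate number carried much of the spread of the APOL genes in ACHN cells. Replicate 3 over the mean of the other two ACHN libraries was 2.09 with si-NUF2 and 1.79 with si-NC for APOL1, 2.04 and 1.70 for APOL2, 2.73 and 2.10 for APOL6, and 3.82 and 3.72 for APOL3. LGALS3BP did this far less, at 1.13 and 1.11. HELZ2 instead had its lowest value in replicate 2, at 0.485 and 0.497 of the mean of the other two. In 769-P cells replicate 3 was the lowest library of its group for APOL1, APOL2, LGALS3BP and HELZ2 in both groups, with HELZ2 at 0.392 and 0.551 of the mean of the other two. What a replicate number stands for is not stated.

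With si-NC the levels per length could be set in order within each cell line. In 769-P cells the order was LGALS3BP, APOL1, APOL2, HELZ2, APOL6, APOL3 and APOL4, with means of 111, 11.2, 7.94, 4.85, 2.83, 0.0655 and 0 FPKM. The ranges of APOL1 and APOL2 overlapped and those of the other neighbors did not. In ACHN cells the order was LGALS3BP, APOL1, APOL2, APOL6, HELZ2, APOL3 and APOL4, with means of 151, 15.99, 7.95, 6.65, 4.61, 3.54 and 0.00216 FPKM. From APOL1 down to APOL3 each gene there overlapped the next. In 769-P cells with si-NUF2, HELZ2 stood between APOL1 and APOL2 at a mean of 15.8 FPKM, and its range overlapped both.

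Between the cell lines with si-NC, 61.5% of the 15376 genes tested were called, so a call here is common. APOL3 had the widest gap, with 4 to 19 reads in the 769-P libraries and 300 to 1434 in the ACHN libraries. Its mean FPKM was 54.1 times that of 769-P cells, and the log2 difference, ACHN minus 769-P, was 4.17. APOL3 reached the filter only through the ACHN libraries where it was high, so this is a description with no test. The log2 value moved with the pseudocount, from 1.89 at a pseudocount of 1 to 5.602 at 0.01. APOL6, which reached the filter in both cell lines, was higher in ACHN cells by 1.08 (SE 0.290, adjusted p = 0.0160 in limma), a call that was lost without replicate 3 of 769-P cells (adjusted p = 0.0511). APOL2 differed by -0.06 (SE 0.255, adjusted p = 0.859 in limma). For the chosen genes, which share these si-NC libraries with the contrast that chose them, the differences are given with no test: 0.44 (SE 0.310) for APOL1, 0.42 (SE 0.128) for LGALS3BP and -0.12 (SE 0.346) for HELZ2.

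Other genes known to be switched on by interferon were followed in the list of 50 interferon-stimulated genes, none of them a member. Whether interferon acted in these cells was not tested. In 769-P cells 40 of the 50 were tested, and 14 of these rose with si-NUF2, or 36 with the block, while none fell. Over all genes tested 9.98% were called in either direction without the block and 27.5% with it. All 40 differences were above 0, with a median of 1.16 on the log2 scale against -0.0090 over all genes tested, and 37 of the 40 were higher in all 3 pairs against 30.9% of all genes tested. The largest were IFI44 at 2.70, IFIT1 at 2.65, IFI6 at 2.64 and OAS2 at 2.58. IFI44 (adjusted p = 0.0145) and IFIT1 (adjusted p = 0.0255) passed in limma without the block and IFI6 (adjusted p = 0.0023) with it. OAS2, OASL, HERC5 and UBE2L6 averaged 0.232, 0.355, 0.348 and 0.357 FPKM with si-NC. They reached the filter mainly through the si-NUF2 libraries, where they were high. This partly fixed the direction of their differences, so their tests are not given, although the counts above include them. IFIT1 and OAS2 are antiviral proteins that act on foreign RNA. The number called without the block moved to between 3 and 27 when each of the 6 libraries was left out, and with the block to between 22 and 36 when each pair was left out. HELZ2 at 1.62 lay above the median of this list, and APOL1, APOL2 and LGALS3BP below it.

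In ACHN cells 41 of the listed genes were tested and none was called without the block by limma, where 1238 genes had an unadjusted p under 0.05 and limma-voom also called none. With the block 5 of the 41 were called, of which 1 rose and 4 fell, a share near the 12.2% called over all genes tested. The median was -0.09 against 0.0061 over all genes tested. The largest differences were IFIT3 at -0.51, OASL at -0.48, IFIT2 at -0.41 and ISG20 at -0.35, of which IFIT3 (adjusted p = 0.0171) and IFIT2 (adjusted p = 0.0215) passed in limma with the block. For the difference between the lines 44 were tested, all values were negative and the median was -1.26. Over all genes tested the median was 0.0174, 53.1% of values were above 0 and 1.52% were called with the block. With the block 20 of them passed, all weaker in ACHN cells, and this count fell to 0 without pair 1 or pair 2 of 769-P cells or without pair 2 or pair 3 of ACHN cells, to 2 without pair 1 of ACHN cells, and became 32 without pair 3 of 769-P cells. The 44 include BST2, IFI27 and IFITM1, which were below the filter in ACHN cells. They also include IFI44L, MX1, ISG20 and RTP4, which were below it in 769-P cells. BST2, IFI27 and IFI44L are among the 20, although they reached the filter in a single line. Also among the 20 are OAS2, OASL and HERC5, which reached the filter of 769-P cells mainly through the si-NUF2 libraries. The count of 20 therefore includes genes whose direction was partly fixed by the filter.

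The summed FPKM of the list followed the members in part from library to library. In 769-P cells the sums were 854, 979 and 403 with si-NUF2 and 350, 342 and 265 with si-NC, so replicate 3 had the smallest sum in both groups, as it had the lowest HELZ2. In ACHN cells it was 458, 475 and 635 with si-NUF2 and 464, 487 and 625 with si-NC, with the highest sum in replicate 3, as for APOL1, APOL2, APOL3 and APOL6. The smallest ACHN sums were those of replicate 1, while HELZ2 and LGALS3BP were lowest in replicate 2 of both groups. Members and list were measured in the same libraries, and these are values side by side with no test.

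**Figure D3:**
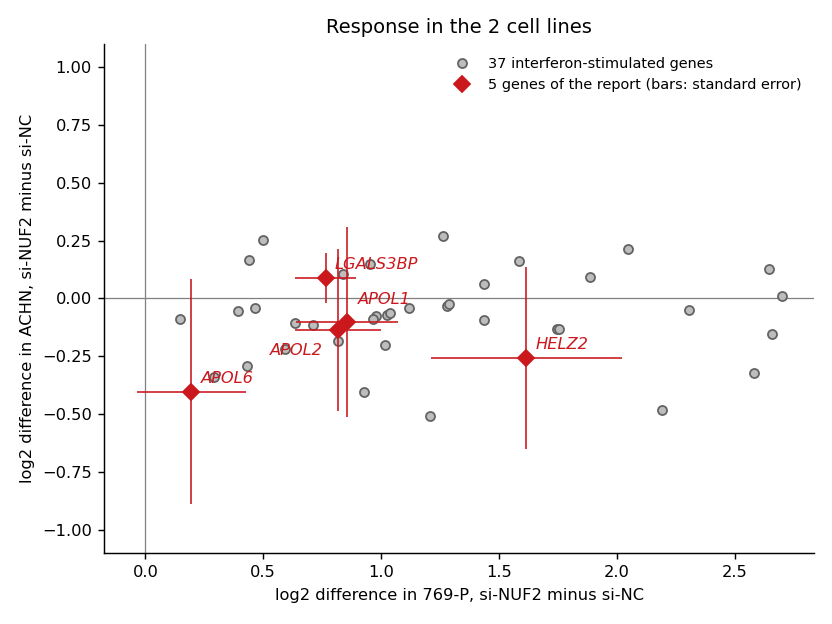
Log2 difference of si-NUF2 minus si-NC in 769-P cells (horizontal) against ACHN cells (vertical) for 37 interferon-stimulated genes tested in both cell lines (grey) and 5 members (red, bars ± SE without the block). All points lie to the right of 0, although the bar of APOL6 crosses it. On the vertical axis they scatter about 0, from -0.51 for IFIT3 upward, with HELZ2 at -0.26 and LGALS3BP at 0.09.

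The interferons themselves were barely detected. None of 9 interferon genes reached the filter. In 769-P cells IFNL1, a type III interferon, had 10, 6 and 4 reads with si-NUF2 against 1, 1 and 0 with si-NC. IFNB1, the first type I interferon made by most cells, had 0, 4 and 1 reads against 0, 2 and 0. IFNE, a type I interferon of epithelia, went the other way, with 4, 4 and 4 reads against 10, 3 and 6. These 3 genes were at 0 reads in every ACHN library. At a few reads per library such values carry wide counting error, and reads of the near-identical IFNL2 (5, 9 and 2 against 4, 0 and 0 in 769-P cells) and IFNL3 (3, 7 and 2 against 5, 1 and 0) cannot be told apart with certainty.

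Of the 18 interferon receptors, JAK-STAT and IRF factors, 16 were tested in 769-P cells and JAK1, a receptor-bound kinase, rose without the block (0.32, adjusted p = 0.0479 in limma). With the block 3 rose and 2 fell, IFNAR1 and IFNGR2 being those that fell and JAK1 and IRF7 (1.31, adjusted p = 0.0073 in limma) among those that rose. IRF7 is a factor that amplifies interferon production. The 5 of 16 called with the block were near the 27.5% called over all genes tested. Without the block, 1 of 16 was under the 9.98% called over all genes. The median over the 16 was -0.05. IRF9 was at 0.54 and IRF1 at -0.44, and neither passed. In ACHN cells 17 were tested, none was called without the block and 3 fell with it, with a median of -0.21. Over all genes tested 12.2% were called there with the block. The largest values there were SOCS1 at -0.64, IRF7 at -0.47, IRF1 at -0.43 and JAK2 at -0.37, and none of these 4 passed. IFNLR1, the specific receptor chain for type III interferons, was listed at 0 in all 769-P libraries and had a mean of 2.12 FPKM in ACHN cells with si-NC.

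Partners of LGALS3BP are set beside the share of all genes called. That share was 9.98% in 769-P cells without the block, 27.5% with it, and 12.2% in ACHN cells with it. Of 11 galectins and matrix partners 8 were tested in 769-P cells, and 1 was called without the block, near the share of 9.98%. This was NID1 (nidogen, a basement membrane protein), which fell by 0.94 on the log2 scale (adjusted p = 0.0051 in limma). With the block 3 fell and 1 rose, the riser being FN1 (fibronectin) at 0.64 (adjusted p = 0.0221 in limma). The other large differences were LGALS4 at -0.56 and LGALS2 at -0.51, both called with the block. The median was -0.14. In ACHN cells none was called without the block and 3 of 8 fell with it, NID1 at -0.52, LGALS1 at -0.32 and LGALS3 at -0.23, and FN1 was at -0.14. LGALS3, the galectin that gave LGALS3BP its name, averaged 3.34 FPKM in 769-P and 19.4 FPKM in ACHN cells with si-NC.

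Of 9 UPF1-like helicases related to HELZ2, 8 were tested in each cell line. Without the block 1 was called in 769-P cells and with it 2, beside 9.98% and 27.5% of all genes tested. In 769-P cells DNA2, which acts in DNA replication, was lower (-0.37, adjusted p = 0.0376 in limma). ZNFX1, a helicase that senses double-stranded RNA, was at 0.52 and rose with the block (adjusted p = 0.0087 in limma), and its response was weaker in ACHN cells by -0.48 (adjusted p = 0.0464 in limma with the block). HELZ, the closest namesake, was at -0.18 and MOV10 at 0.14, and neither passed. In ACHN cells none passed with or without the block, with MOV10 at -0.19, DNA2 at 0.14 and IGHMBP2 at 0.13.

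Of 14 PPAR receptors and coactivators, tested because HELZ2 is known as a PPAR coactivator, PPARG (0.51, adjusted p = 0.0149 in limma) and RXRB (0.43, adjusted p = 0.0251) rose in 769-P cells and PPARGC1A was lower (-0.49, adjusted p = 0.0228). NCOA2 at -0.56 and PPARD at -0.43 were lower with the block alone, under which 2 rose and 5 fell. Of all genes tested, 9.98% and 27.5% were called in 769-P cells without and with the block, and 12.2% in ACHN cells with it. In ACHN cells 13 were tested and none passed without the block. With it PPARG rose (0.32, adjusted p = 0.0287 in limma) and NCOA2 was lower (-0.52, adjusted p = 0.0241), while NCOA3 was at -0.27 and PPARD at -0.18. PPARA itself, at -0.16 in 769-P cells against 0.14 in ACHN cells, did not pass. Among 10 apolipoproteins outside the L class, none passed without the block, with 4 tested in 769-P and 5 in ACHN cells. Their 769-P values were APOE at -0.46, APOM at -0.38, APOOL at -0.29 and APOO at -0.08, of which APOM and APOOL were lower with the block. In ACHN cells APOC1 was at 0.42, APOOL at -0.31, APOM at 0.23 and APOO at 0.09. The difference between the lines passed with the block for APOM (0.61, adjusted p = 0.0466 in limma).

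Genes next to the members on the chromosome were counted within 250 kb. Of all genes tested, 9.98% and 27.5% were called in 769-P cells without and with the block, and 12.2% in ACHN cells with it. In 769-P cells without the block, 1 call among 7 or among 11 genes was near the 9.98%. Around the APOL genes 31 further genes were annotated and 7 of them were tested in each cell line. In 769-P cells TXN2, a mitochondrial thioredoxin, was lower (-0.47, SE 0.0721, adjusted p = 0.0140 in limma), and with the block MYH9, a nonmuscle myosin heavy chain whose gene lies beside APOL1, rose (0.42, adjusted p = 0.0180) as did EIF3D (0.22, adjusted p = 0.0281). In ACHN cells none was called without the block, and with it MYH9 (0.33, adjusted p = 0.0259 in limma) and MCM5 (0.53, adjusted p = 0.0440) rose. The median over the 7 was 0.05 in 769-P cells. Around LGALS3BP 5 of 14 genes were tested in 769-P cells, where CYTH1 (0.38, adjusted p = 0.0461 in limma) and CANT1 (0.35, adjusted p = 0.0242) rose and TIMP2, an inhibitor of matrix metalloproteinases, was lower (-0.48, adjusted p = 0.0136). In ACHN cells 7 were tested, and with the block CANT1 rose while TIMP2 and CYTH1 were lower. Around HELZ2 11 of 30 were tested in each line, and EEF1A2, a translation elongation factor, rose in 769-P cells (0.46, adjusted p = 0.0419 in limma).

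**Figure D4:**
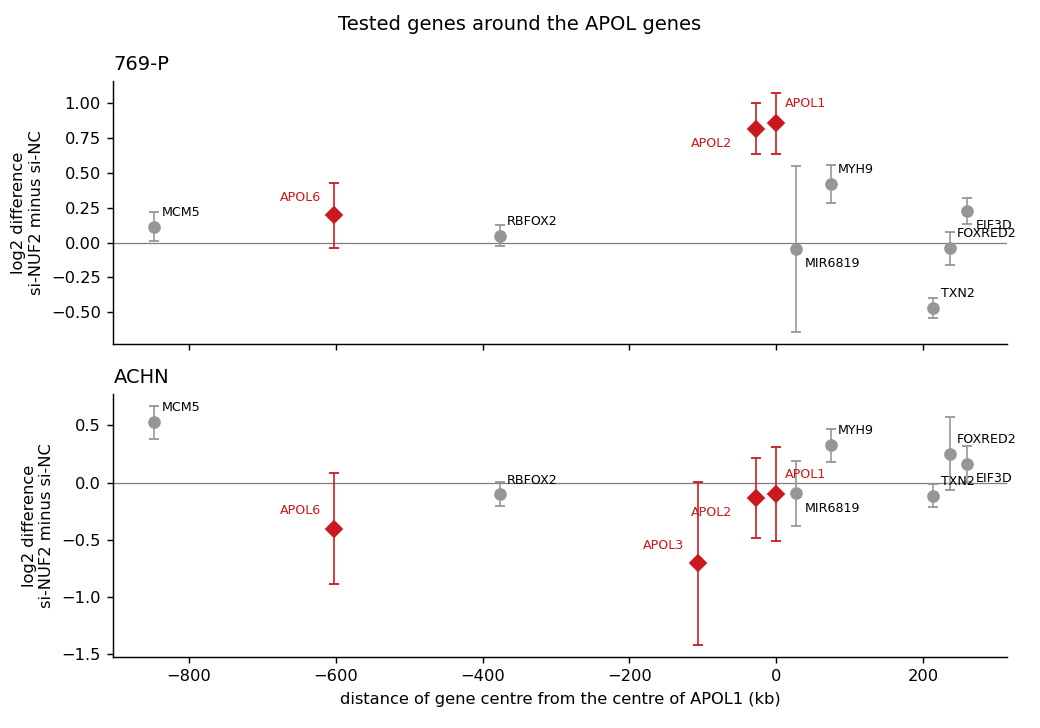
Log2 difference of si-NUF2 minus si-NC (vertical, ± SE without the block) for the tested genes around the APOL genes, by distance of the gene centre from the centre of APOL1 in kb (horizontal), in 769-P cells above and ACHN cells below. In 769-P cells APOL1 at 0.86 and APOL2 at 0.82 stand above MYH9 at 0.42 and TXN2 at -0.47 on their right.

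The genes whose pattern was most like that of each chosen gene were ranked by Pearson's r over the 12 libraries, on log2(FPKM + 0.1) less the mean of the si-NC libraries of the same cell line, among 12930 genes tested in both lines. For APOL1 they were ADAR (r = 0.950), OLFML2A (0.938), SAMD9L (0.932), OAS2 (0.930) and ANKFY1 (0.929), with APOL2 at rank 8 (0.925). For LGALS3BP they were IFI16 (0.967), DHX58 (0.964), IFI44 (0.961), HERC5 (0.956) and USP18 (0.947), with HELZ2 at rank 16 (0.928) and APOL1 at rank 248 (0.795). For HELZ2 they were OASL (0.990), C19orf66 (0.979), DHX58 (0.973), SAMHD1 (0.967) and IFIT3 (0.954), with LGALS3BP at rank 11 (0.928). APOL6 had an r of 0.759 with APOL1, 0.626 with HELZ2 and 0.442 with LGALS3BP. The libraries are shared by all genes and the points fall into groups, so r is a description with no p.

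The cell lines were checked against marker lists. Of the renal epithelial markers PAX8, a transcription factor of the renal lineage, averaged 66.3 FPKM in 769-P and 134 FPKM in ACHN cells with si-NC, and all 12 markers were above 0 in every 769-P library against 10 to 11 in the ACHN libraries. With si-NUF2, PAX8 was lower in 769-P cells (-0.44, adjusted p = 0.0360 in limma), the 1 call among 9 renal markers tested, and with the block 3 rose and 4 fell. Of all genes tested, 9.98% and 27.5% were called in 769-P cells without and with the block, and 12.2% in ACHN cells with it. The 1 renal call was near the 9.98%. In ACHN cells none of 8 was called without the block, and with it the keratins KRT8 (0.62, adjusted p = 0.0122 in limma) and KRT18 (0.60, adjusted p = 0.0118) rose. The renal list summed to 275 to 317 FPKM with si-NUF2 and 274 to 313 with si-NC in 769-P cells, and to 384 to 551 against 360 to 438 FPKM in ACHN cells. LRP2, CUBN and AQP1, which mark the proximal tubule, averaged under 0.5 FPKM in every group. Markers linked to the hypoxic program of clear cell carcinoma were low in 769-P cells, where 5 genes summed to 4.12 to 6.10 FPKM against 15.4 to 45.1 FPKM in ACHN cells, and CA9 averaged at most 0.0625 FPKM in either line. Endothelial and leukocyte markers summed to at most 0.124 and 0.469 FPKM in any library. Podocytes are a kidney cell type in which APOL1 is studied. Of 5 podocyte markers 3 were tested in 769-P cells, where SYNPO (1.17, adjusted p = 0.0202 in limma) and PODXL (0.42, adjusted p = 0.0417) rose beside the members. The list summed to 7.995 to 9.92 FPKM with si-NUF2 and to 5.41 to 6.10 FPKM with si-NC in these cells, and NPHS1 averaged at most 0.0062 FPKM in 769-P cells. In ACHN cells 3 podocyte markers were tested and none was called with or without the block. The podocyte list summed there to 21.9 to 30.3 FPKM with si-NUF2 and to 26.3 to 32.3 FPKM with si-NC, more than in 769-P cells. The part of these markers in the results was not tested.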

How the data were processed

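RNA was sequenced from 769-P and ACHN cells 48 h after transfection (4 groups, 3 replicates each). The values the authors deposited are FPKM per gene and library. The methods name fastp filtering, and the submitters' processing notes list hg38, HISAT2 2.0.5 and featureCounts 1.5.0-p3. The annotation release and the strand setting are not given in the sources used here. Groups and replicate numbers follow the sample labels. The members, gene lists and tests were chosen with earlier results of these data known.

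FPKM were scaled over the libraries of each fit by a trimmed mean of log ratios (30% of ratios, 5% of levels). Genes with at least 0.5 scaled FPKM in at least 3 libraries were fitted on log2(FPKM + 0.1) with limma 3.58.1 (lmFit, eBayes with trend) in R 4.3.3, each cell line alone. The difference between the lines is the interaction of siRNA and line in all 12 libraries, and the baseline compares the si-NC libraries. Calls are at a Benjamini-Hochberg adjusted p under 0.05.

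Same-numbered libraries of the si-NUF2 and si-NC groups were compared by the correlation, across genes, of their deviations from the group means. For 769-P the values were 0.359, 0.271 and 0.190, and for ACHN 0.648, 0.735 and 0.460, so the numbers were taken to pair the libraries. No library was a copy of another of its group (chi-square per gene at least 14.0). Reads were recovered for 34627 genes (95.4% of those above 0) with GENCODE 29 exon lengths, and 95.2% of values above 0 came out whole. Counts called by limma-voom on these reads are an added alternative. Counting intervals cover counting error only.

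The genes named are the members, NUF2, the 4 largest absolute differences in each list and cell line, the called genes within 250 kb of a member and the 5 genes most like each chosen gene. Some further genes were named after their values were seen. Some genes that this rule names are not reported here. Alternatives were median-ratio, upper-quartile and no further scaling, pseudocounts of 1 and 0.01, no filter, the replicate block, a filter of 1 FPKM in every library, a joint fit of all 12 libraries, an adjusted p under 0.01, and each library left out. The block with each pair left out and limma-voom were chosen after seeing the data. Tables and plots were made in Python 3.11.15 with pandas 2.3.3 and matplotlib 3.10.9, beside SciPy 1.17.1 and NumPy 2.4.6.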

Additional observations from a re-analysis of the deposited data

Results flagged for a closer look

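The response of APOL2 differed between the cell lines with the replicate block, where the response in ACHN minus that in 769-P cells was -0.948 on the log2 scale (SE 0.104, adjusted p = 0.0323 in limma). Without the block the adjusted p was 1.00.

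HELZ2 was higher with si-NUF2 in all 3 pairs of 769-P cells, with a mean log2 difference of 1.62, and lower in all 3 pairs of ACHN cells, with a mean of -0.26. Over all genes tested, 30.9% were higher in all 3 pairs of 769-P cells and 25.6% lower in all 3 pairs of ACHN cells. HELZ2 was selected on this difference between the cell lines, and the difference was not tested.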

How the results depend on the processing

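The number of genes called in 769-P cells was 1412, and it was 635 with no filter, 3898 with the replicate block, 700 with all 12 libraries in one fit, 160 at an adjusted p under 0.01, between 357 and 1144 when each library was left out, and between 1691 and 3034 (2346 without pair 1) when each pair was left out with the block. In ACHN cells it was 0, and it was 1843 with the block, 171 with all 12 libraries in one fit, 0 when each library was left out, and 508, 1076 and 0 without pair 1, 2 and 3 with the block. For the difference between the lines it was 0, and it was 2 with a pseudocount of 0.01, 15 with no filter, 251 with the block, 0 to 1 when each library was left out, and 0 to 122 when each pair was left out with the block. Between the lines with si-NC it was 9461, and 6278 with 1 FPKM required in every library. The cause of these moves was not tested. Among APOL2, APOL3, APOL6 and NUF2, the genes given a test, the block changed the calls of APOL3 and NUF2 in ACHN cells and of APOL2 between the lines, and no other call.

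The sign turned for APOL6 in 769-P cells without replicate 2 of si-NUF2 (-0.0064) and without pair 2 with the block (-0.027), and reached 0.47 without replicate 3 of si-NUF2. It turned for APOL2 in ACHN cells without replicate 1 (0.030) or replicate 2 (0.032) of si-NUF2 or replicate 3 of si-NC (0.117), and the lowest value was -0.48. Among the chosen genes, which have no test, it turned in ACHN cells for APOL1 without replicate 1 of si-NUF2 (0.190) or replicate 3 of si-NC (0.186) and for HELZ2 without replicate 2 of si-NUF2 (0.078). The value of APOL3 between the lines, -0.36 and not tested, turned with a pseudocount of 0.01 (0.092), with limma-voom (0.180) and without replicate 3 of si-NC in ACHN cells (0.245), and the lowest value was -0.98. With si-NC it turned for APOL2 without replicate 1 of 769-P (0.112), replicate 1 of ACHN (0.067) or replicate 2 of ACHN (0.063), with a lowest value of -0.31, and for HELZ2 without replicate 1 of 769-P (0.045) or replicate 2 of ACHN (0.201), with a lowest value of -0.40. The cause was not tested. APOL2 in 769-P cells kept its direction under all 20 alternatives (0.67 to 0.99) and lost its call also with no filter (adjusted p = 0.0978) and with all 12 libraries in one fit (adjusted p = 0.178 in limma). Upper-quartile scaling moved the median of all genes between the lines with si-NC from -0.037 to -0.167. No blocked fit was made between the lines, since no pairing crosses them. Depth limits APOL4, the interferon genes and APOL3 in 769-P cells.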
